A study of Homo sapiens with 8 samples.

Results

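BARD1, BRCA1 and 7 genes whose proteins work with them (BRCA2, PALB2, BRIP1, ABRAXAS1, UIMC1, BRCC3 and BABAM1) were taken by name from a gene table of PANC-1 cells. They are 9 of 19951 protein-coding genes in a table of 58735 genes. All 9 were among the 15287 genes that passed the filter on low counts. PANC-1 is an established human line of pancreatic ductal adenocarcinoma. Polyadenylated RNA was sequenced 48 h after transfection of small interfering RNA (siRNA). In 4 libraries the cells had a scrambled control siRNA and the genotype label WT (siSCR). In the other 4 they had an siRNA against BARD1 and the genotype label BARD1 knockdown (siBARD1). The replicates carry the numbers 1, 3, 4 and 5 in both groups. Neither the siRNA sequences nor their number appear in the sources used here. Whether replicates were separate cultures is not labelled, so each p-value reflects the spread among these libraries, which may be technical. All libraries come from a single cell line.

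BRCA1 and BARD1 pair through their RING domains to form a ubiquitin ligase that acts on histone H2A and is needed for homologous recombination, the repair of broken DNA from an intact copy. BRCA1 then works through several complexes. With PALB2 as the bridge it brings in BRCA2, which acts on the single-stranded DNA at the break. With the helicase BRIP1 it acts at replication forks and DNA crosslinks. In the BRCA1-A complex the scaffold ABRAXAS1 binds BRCA1, UIMC1 (RAP80) reads ubiquitin chains at the break, BRCC3 is the deubiquitinase that cuts lysine-63-linked chains, and BABAM1 (MERIT40) holds the assembly together. BRCC3 and BABAM1 also serve the cytoplasmic BRISC complex. Several genes of this set are known to be transcribed mainly in S phase.

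Between 17816547 and 28590710 counts per library were assigned to genes. A gene's level is given as CPM, its count divided by the normalised library total and scaled up by a fixed factor. On log2 CPM, principal component 1 separated the groups and took up 53.5% of the variance. On the second, with 14.1%, siSCR replicate 1 lay at 24.4, and the other libraries lay between -10.3 and 4.86. Where leaving that library out changes a call or moves a value, the result is also given without it. The keratins KRT8, KRT18 and KRT19 and the mesenchymal marker VIM lay between 595.3 and 3953 CPM in every library, and KRT7 between 1.09 and 2.44 CPM. KRT8, KRT18, KRT19 and VIM were lower in siBARD1 (log2 fold changes -0.81, -0.87, -0.74 and -0.48). CDKN2A, which is deleted in this line, the islet genes INS and GCG, and the hepatocyte gene ALB had 0 counts in all libraries. The acinar genes PRSS1 and CPA1, the leukocyte gene PTPRC and the endothelial gene PECAM1 had at most 3 counts in any library.

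Levels of different genes were compared per length, as the authors' FPKM (counts scaled for gene length and library size). BRCC3 stood highest in siSCR at 11.8 ± 0.43 FPKM (SD, n = 4). UIMC1 (7.53 ± 0.58), BABAM1 (7.31 ± 0.64) and PALB2 (6.57 ± 0.17) followed. Same-strand genes cover 32.6% of the exonic bases of BABAM1, and if reads there were left out, its FPKM is too low. The libraries of BABAM1 overlapped those of UIMC1, and the libraries of PALB2 overlapped those of BABAM1. BRCA1 (3.37 ± 0.19) and BARD1 (3.20 ± 0.38) formed a pair at about the same level, again with overlapping libraries. BRIP1 (2.42 ± 0.20), BRCA2 (1.92 ± 0.08) and ABRAXAS1 (1.53 ± 0.11) came last, each below the one before without overlap. The ranks among tested protein-coding genes ran from the 67.8 percentile for BRCC3 to the 23.3 percentile for ABRAXAS1. In siBARD1, BARD1 moved from rank 6 to rank 9 of the 9 genes, at 0.490 ± 0.066 FPKM (SD, n = 4). ABRAXAS1, the next lowest there, stood at 1.81 ± 0.11 FPKM.

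**Figure D1:**
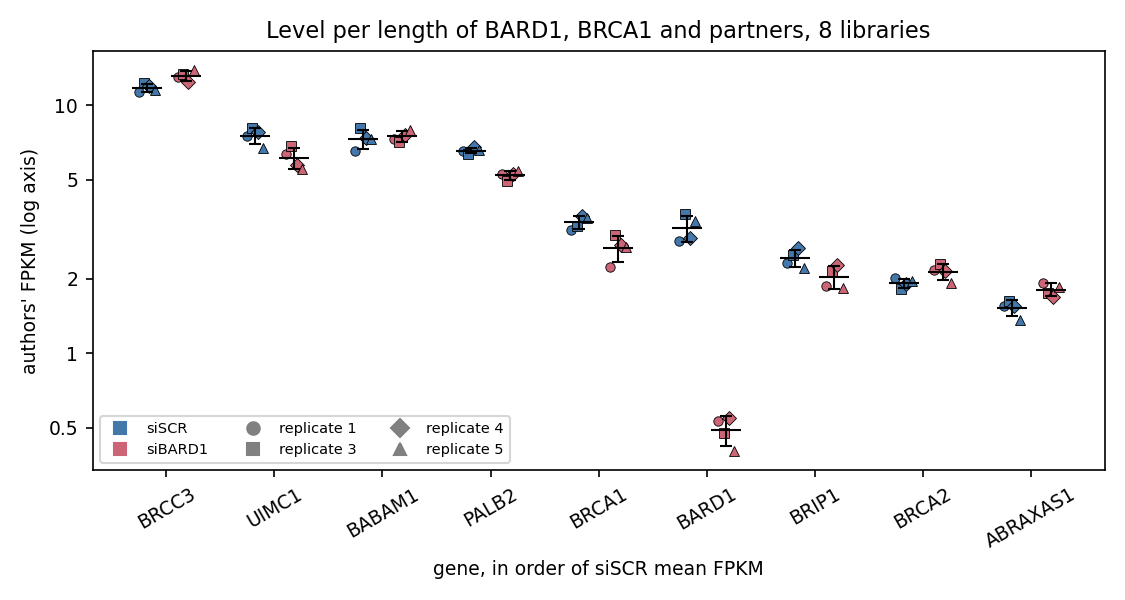
Authors' FPKM of the 9 genes on a log axis in 4 siSCR (blue) and 4 siBARD1 (red) libraries, with marker shape for the replicate number and bars for mean and SD. BARD1 falls from about the level of BRCA1 to the lowest of the set (0.490 FPKM), and the other 8 genes shift far less.

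BARD1, the target of the siRNA, fell 6.48-fold and no library of one group reached the other. It is encoded on chromosome 2 from 214725646 to 214809711 on the minus strand (GRCh38; ENSG00000138376). Its level was 17.3, 22.2, 17.82 and 20.8 CPM in siSCR replicates 1, 3, 4 and 5. It was 3.27, 2.91, 3.34 and 2.47 CPM in the same-numbered siBARD1 libraries, from counts of 55 to 97. On the log2 scale BARD1 fell by 2.69 (SE 0.12, edgeR adjusted p = 7.41e-11), the third steepest fall of all 15287 genes tested. In every siBARD1 library some BARD1 transcript was still counted, and 15.4% of the siSCR level remained in the fit. In bulk RNA, fewer cells with a transcript and less of it in each cell cannot be told apart.

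BRCA1 (ENSG00000012048; chromosome 17, 43044295 to 43170245, minus strand), which with BARD1 forms the ligase, fell by 20.7%. It stood at 29.1, 29.98, 32.9 and 32.4 CPM in siSCR replicates 1, 3, 4 and 5, and at 20.6, 27.6, 25.2 and 24.9 CPM in the same-numbered siBARD1 libraries. The groups did not overlap, but siBARD1 replicate 3 came within 1.5 CPM of siSCR replicate 1, and siBARD1 replicate 1 was the lowest of all. BRCA1 thus had a log2 fold change of -0.33 (SE 0.08, adjusted p = 0.0042), or -0.37 without siSCR replicate 1. Same-strand genes cover about 1.31% of the exonic bases of BRCA1.

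The balance of the pair, measured within each library, therefore differed between the groups. The BARD1 to BRCA1 ratio of FPKM, which does not depend on scaling between libraries, was 0.903, 1.12, 0.820 and 0.973 in siSCR replicates 1, 3, 4 and 5. It was 0.240, 0.160, 0.200 and 0.150 in the same-numbered siBARD1 libraries. The siSCR libraries had close to 1 BARD1 transcript per BRCA1 transcript by this measure. The ratio was 5.14-fold lower in siBARD1 (exact two-sided permutation p = 0.0286, the smallest that 4 against 4 libraries allow). BARD1 is the target of the siRNA and BRCA1 moved far less, so this p follows from the fall of BARD1 and adds no evidence of its own. FPKM rests on annotated gene lengths, so the ratio is not a count of molecules.

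PALB2 (ENSG00000083093; chromosome 16, 23603160 to 23641310, minus strand), the bridge from BRCA1 to BRCA2, fell by 20.3%. Its level was 31.2, 30.3, 32.4 and 31.5 CPM in siSCR replicates 1, 3, 4 and 5 and 25.2, 23.6, 25.2 and 26.0 CPM in the same-numbered siBARD1 libraries. Both groups were tight and lay well apart, and among the partners this change had the smallest adjusted p. On the log2 scale it fell by 0.33 (SE 0.06, adjusted p = 5.55e-04).

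BRCA2 (ENSG00000139618; chromosome 13, 32315474 to 32400266, plus strand), which PALB2 binds, did not pass the test. It stood at 24.7, 22.4, 23.4 and 24.1 CPM in siSCR and at 26.7, 28.4, 26.5 and 23.7 CPM in siBARD1 (replicates 1, 3, 4 and 5). Replicate 5 of siBARD1 lay within the siSCR range and the other 3 lay above it. Its change was 0.15 on the log2 scale (SE 0.07, 95% interval 0.01 to 0.29, adjusted p = 0.102). Without siBARD1 replicate 5 it was 0.20 with an adjusted p of 0.0421, and with scaling by total count only it was 0.20 with an adjusted p of 0.0361.

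BRIP1 (ENSG00000136492; chromosome 17, 61681266 to 61863521, minus strand), the helicase bound by the BRCT domains of BRCA1, fell by 15.5%. It was 18.5, 19.9, 21.4 and 17.83 CPM in siSCR replicates 1, 3, 4 and 5 and 15.0, 17.4, 18.2 and 14.8 CPM in siBARD1. The groups overlapped, with siBARD1 replicate 4 above siSCR replicate 5. In log2 terms the change was -0.24 (SE 0.09, adjusted p = 0.0405). The call was lost when siSCR replicate 3 (adjusted p = 0.0835), siSCR replicate 4 (0.137), siBARD1 replicate 1 (0.108) or siBARD1 replicate 5 (0.119) was left out. It was also lost with scaling by total count only (0.0909), with no low-count filter (0.0589), and with limma on log2(FPKM + 1) (0.0719) or log2(FPKM + 0.1) (0.0732).

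The subunits of the BRCA1-A complex moved in different directions. UIMC1 (ENSG00000087206; chromosome 5, 176905005 to 177022633, minus strand), the reader of ubiquitin chains, fell by 18.6%. It stood at 35.8, 38.4, 37.1 and 32.2 CPM in siSCR replicates 1, 3, 4 and 5 and at 30.4, 32.6, 27.3 and 26.4 CPM in siBARD1. The highest siBARD1 library, replicate 3, lay just above the lowest siSCR library, replicate 5. The log2 fold change was -0.30 (SE 0.08, adjusted p = 0.0061).

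ABRAXAS1 (ENSG00000163322; chromosome 4, 83459517 to 83523348, minus strand), the scaffold that UIMC1 and BRCA1 bind, rose by 18.5%. Its level was 12.2, 12.7, 12.2 and 10.7 CPM in siSCR replicates 1, 3, 4 and 5 and 15.1, 13.7, 13.2 and 14.6 CPM in siBARD1. The groups did not overlap, by a margin of under 1 CPM. The log2 fold change was 0.25 (SE 0.09, adjusted p = 0.0385). The call was lost without siSCR replicate 4 (adjusted p = 0.0638), siSCR replicate 5 (0.114), siBARD1 replicate 1 (0.102) or siBARD1 replicate 5 (0.0853). It was also lost with no low-count filter (0.0624) and with limma on log2(FPKM + 1) (0.0668) or log2(FPKM + 0.1) (0.0727). Genes on the opposite strand cover 25.2% of the exonic bases of ABRAXAS1, and whether counting used strand is not stated. MRPS18C, a mitochondrial ribosomal protein gene that overlaps it on that strand, moved the other way, from 17.5 ± 3.16 to 13.3 ± 1.42 CPM (n = 4 each, with SD), a log2 change of -0.39 (SE 0.12, adjusted p = 0.0147). The MRPS18C call was lost without siSCR replicate 3 (adjusted p = 0.0560), and its change was -0.45 without siSCR replicate 1.

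BRCC3 (ENSG00000185515; chromosome X, 155071420 to 155123074, plus strand), the deubiquitinase, rose by 12.2%. It was 36.1, 39.1, 38.4 and 37.0 CPM in siSCR replicates 1, 3, 4 and 5 and 41.7, 42.8, 39.8 and 44.7 CPM in siBARD1, so that the groups did not overlap. This was a log2 change of 0.17 (SE 0.06, adjusted p = 0.0350). The call was lost in 6 of 8 fits that each left out a library, the exceptions being those without siSCR replicate 3 and without siBARD1 replicate 4. Adjusted p in those 8 fits ran from 0.0320 to 0.106, the highest without siBARD1 replicate 5, and it was 0.0715 without siSCR replicate 1. With no low-count filter it was 0.0537. The processed pseudogene BRCC3P1 had 1 to 13 counts per library.

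BABAM1 (ENSG00000105393; chromosome 19, 17267350 to 17281249, plus strand) did not pass the test. It was 17.0, 21.1, 19.3 and 19.2 CPM in siSCR replicates 1, 3, 4 and 5 and 19.2, 18.7, 19.9 and 20.9 CPM in siBARD1. All siBARD1 values lay within the siSCR range. Its log2 difference was 0.04 (95% interval -0.11 to 0.20, adjusted p = 0.711), and it was -0.011 without siSCR replicate 1. AC010463.1, an annotated gene with 1 count in all libraries together, overlaps BABAM1 on the same strand, and same-strand genes cover 32.6% of its exonic bases. Reads there may have been left out of its count.

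**Figure D2:**
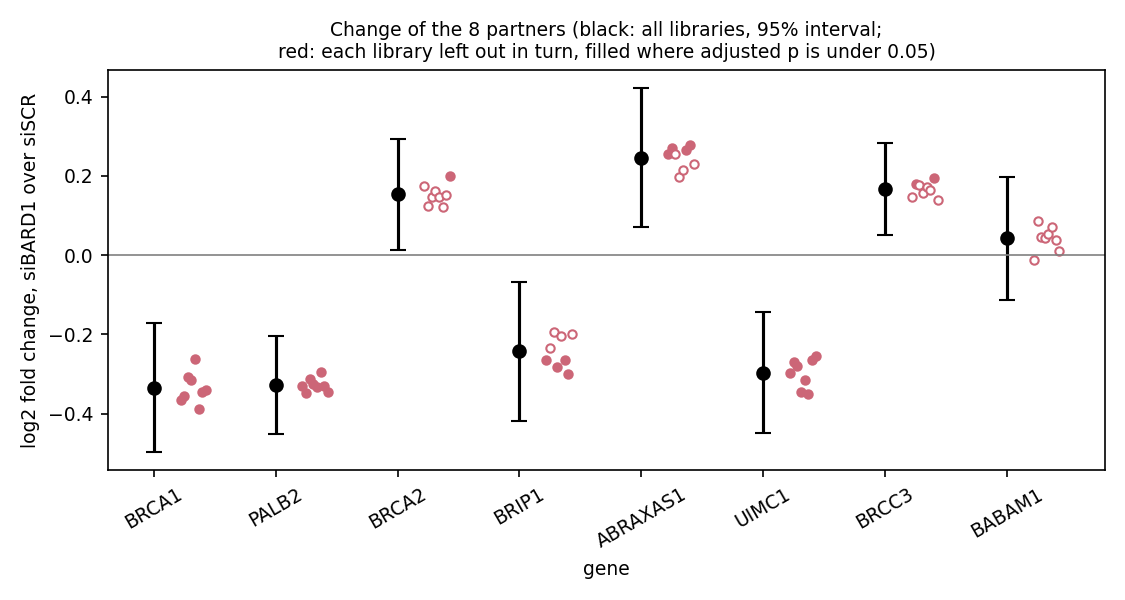
Log2 fold change (siBARD1 over siSCR) of the 8 partners, with the 95% interval in black and each fit without 1 library in red, filled where its adjusted p was under 0.05. All red points are filled for BRCA1, PALB2 and UIMC1, those of BRIP1, ABRAXAS1 and BRCC3 are partly open, and BRCA2 and BABAM1 were not called with all libraries.

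Counted together, 5 of the 9 genes were lower (BARD1, BRCA1, PALB2, UIMC1 and BRIP1), 2 were higher (ABRAXAS1 and BRCC3) and 2 did not pass. Over all 15287 genes tested, 20.0% were lower, 18.9% were higher and 38.9% were called in either direction at an edgeR adjusted p under 0.05. By direction these were 3057 lower and 2889 higher genes, and with scaling by total count only they were 2478 lower and 3616 higher. Leaving out siSCR replicate 1 gave 3195 lower and 3149 higher. Without the target itself, 4 of 8 partners were lower and 2 higher, with a median log2 fold change of -0.10 against 0.00 for all genes. The 2 groups of libraries did not overlap for 4 of the 8 partners, compared with 36.1% of all genes. The sizes were modest: the median size among all 5946 called genes was 0.36 on the log2 scale, and no partner exceeded 0.33. The number of the 9 that were lower was 4 or 5 in all fits that left out a library. As for genes called higher, there were 0 without siSCR replicate 4 or 5 or siBARD1 replicate 1. There was 1 when siSCR replicate 1 or siBARD1 replicate 3 or 5 was left out.

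Ratios between partners that share a complex were taken within each library and are given as a description. PALB2 to BRCA2 went from 3.43 ± 0.14 in siSCR to 2.47 ± 0.28 in siBARD1 (SD, n = 4 each). All 4 siBARD1 ratios, from 2.15 to 2.83, lay below the siSCR ratios of 3.26 to 3.58. UIMC1 to ABRAXAS1 went from 4.93 ± 0.08 to 3.39 ± 0.39, and ABRAXAS1 to BRCA1 from 0.455 ± 0.052 to 0.691 ± 0.125, again without overlap. These 3 shifts follow from the changes of the single genes given above. No share of such shifts was taken over other gene pairs, so they are not read as a result about the complexes. For single genes, the groups did not overlap in 36.1% of all tested. The call of ABRAXAS1, on which UIMC1 to ABRAXAS1 and ABRAXAS1 to BRCA1 rest, held in 10 of 17 alternatives. BRCA1 to PALB2 was 0.513 ± 0.022 and 0.511 ± 0.075, with overlap, as both genes were lower. BRIP1 to BRCA1 (0.719 ± 0.059 and 0.768 ± 0.077), BRCC3 to ABRAXAS1 (7.74 ± 0.51 and 7.30 ± 0.40) and BABAM1 to ABRAXAS1 (4.80 ± 0.48 and 4.15 ± 0.30) overlapped between groups.

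**Figure D3:**
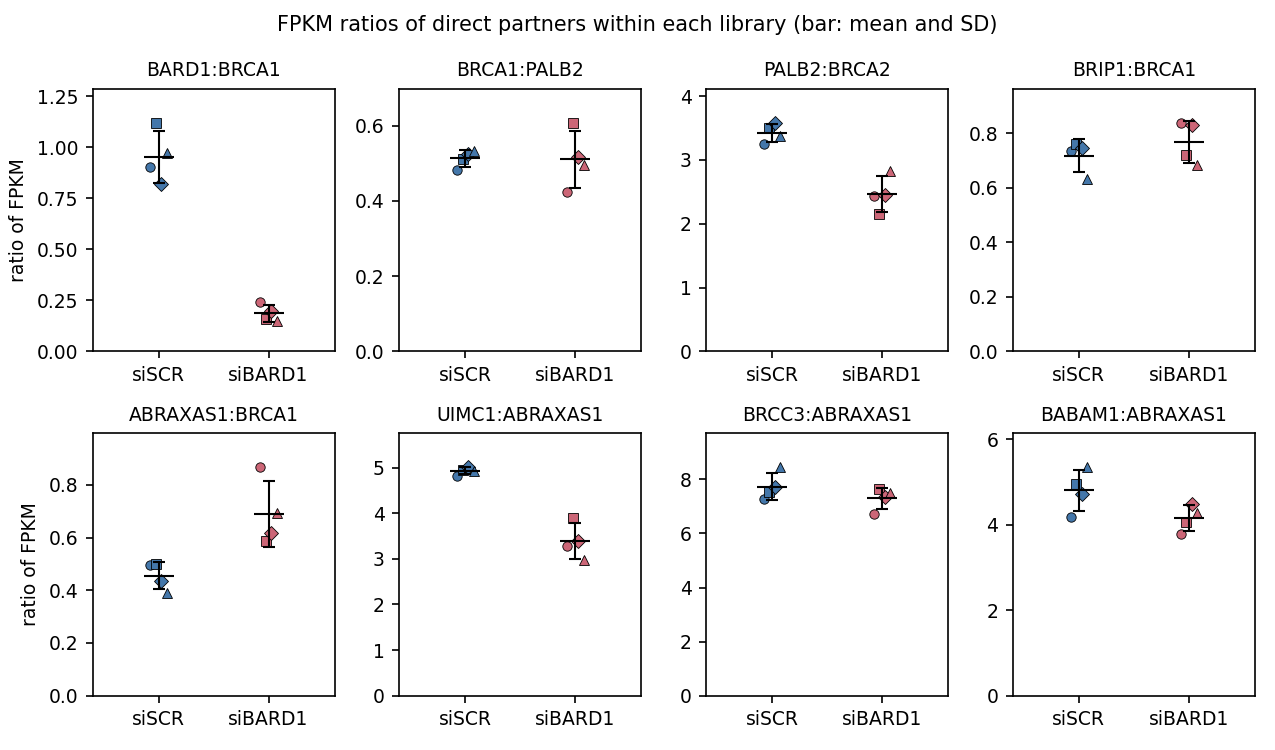
Ratio, in each library, of the authors' FPKM values for 8 pairs of partners that share a complex. Libraries are siSCR (blue) and siBARD1 (red), with mean and SD, and every axis starts at 0. The BARD1 to BRCA1 ratio drops from 0.954 to 0.187. The PALB2 to BRCA2, UIMC1 to ABRAXAS1 and ABRAXAS1 to BRCA1 ratios separate without overlap, and the other 4 overlap. No share was taken over other gene pairs.

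The transcripts were searched for CTACCAG, a 7-base sequence that an earlier look at these same libraries found often in the transcripts with the steepest falls. It is shown here because the siRNA target carries it and because its presence differs among the partners. In the transcript with the longest coding sequence (GENCODE 29), BARD1 held it at 2 places, BRCA1 at 3, UIMC1 at 2 and PALB2 at 1. BRCA2, BRIP1, ABRAXAS1, BRCC3 and BABAM1 had no copy in any annotated coding transcript. Across 12709 tested protein-coding genes, 24.3% had at least 1 copy in that transcript. By this choice of transcript, the 4 genes with a copy were among the 5 called lower, and BRIP1 was lower without a copy. Since both the sequence and the genes were chosen with results of these libraries known, this is a description. The search of the transcript with the longest coding sequence was also added after seeing the data. By the transcript with the longest 3′ UTR, only 3 of these genes had a copy (BARD1, BRCA1 and UIMC1). PALB2 had 0 copies there, because that form is only 626 bases long. By that choice both PALB2 and BRIP1 were lower without a copy, so the match with the genes called lower depends on the transcript searched. For genes named from here on, copies were counted in the transcript with the longest 3′ UTR.

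Each site is printed 5′ to 3′ as 21 bases of the transcript, with the 7 bases in capitals, 13 bases before them and 1 after. Coordinates are those of the 7 bases (GRCh38, all on the minus strand). The BARD1 sites lie in the coding sequence in exon 7 of 11 (chr2:214752485-214752491) and in the 3′ UTR in exon 11 (chr2:214727351-214727357). The BRCA1 sites lie in coding exons 10, 14 and 24 of 24 (chr17:43093678-43093684, chr17:43076515-43076521 and chr17:43045732-43045738). The PALB2 site lies in coding exon 5 of 13 (chr16:23630116-23630122). The UIMC1 sites lie in coding exons 2 and 5 of 15 (chr5:176982539-176982545 and chr5:176969675-176969681).
BARD1 coding site: atcgctattgctgCTACCAGa
BARD1 3′ UTR site: gacagtttgataaCTACCAGa
BRCA1 exon 10 site: aggaggaagtcttCTACCAGg
BRCA1 exon 14 site: tctgcagatagttCTACCAGt
BRCA1 exon 24 site: acagtgtagcactCTACCAGt
PALB2 exon 5 site: ggaccttattgttCTACCAGg
UIMC1 exon 2 site: aaggatgtggaaaCTACCAGt
UIMC1 exon 5 site: tctgatgcttccgCTACCAGa

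Outside the 7 shared bases the sites were little alike. The partners' sites matched the BARD1 coding site at 9 to 13 of 21 positions and the BARD1 3′ UTR site at 8 to 13, the 7 shared bases included. The BARD1 sites matched each other at 11 of 21. The sources used here do not say which BARD1 bases the siRNA pairs with, so no site could be read as the intended one.

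Several of these genes start close to a gene on the other strand. Of 6 genes whose 5′ end lay within 1000 bases of a member's on the opposite strand, 3 passed the low-count filter. DCTN5, a subunit of dynactin, starts 82 bases from PALB2, and both fell. It stood at 116.5, 116.3, 116.8 and 111.8 CPM in siSCR replicates 1, 3, 4 and 5 and at 74.0, 78.0, 71.3 and 63.5 CPM in siBARD1. The fall of DCTN5 (log2 fold change -0.69, SE 0.06, adjusted p = 1.19e-07) was the larger of the pair, and its transcript carried CTACCAG at 2 places, 1 of them in the 3′ UTR. ZNF346, which encodes a zinc finger protein that binds double-stranded RNA, starts 63 bases from the annotated 5′ end of UIMC1, and it fell too. Its means were 24.0 ± 1.29 and 19.2 ± 1.41 CPM (SD, n = 4 each), a log2 change of -0.32 (SE 0.08, adjusted p = 0.0030), with no overlap and no copy of CTACCAG.

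Opposite BRCA1, which fell, 1 neighbour was called higher and the other did not pass. NBR1, an autophagy receptor, starts 236 bases from the outermost annotated 5′ end of BRCA1 and was higher, at 45.6 ± 3.56 in siSCR and 52.8 ± 3.24 CPM in siBARD1 (a log2 change of 0.21, SE 0.07, adjusted p = 0.0196). Its transcript carried CTACCAG at 2 places, 1 of them in the 3′ UTR, as that of DCTN5 did. The groups overlapped, and leaving out siSCR replicate 3 or siBARD1 replicate 1 ended the call (adjusted p = 0.0725 and 0.0627). When siSCR replicate 1 was left out, the log2 change of NBR1 was 0.26. NBR2, a noncoding RNA, starts 246 bases from the RefSeq start of the main BRCA1 transcript, inside the annotated BRCA1 span. It was 4.47, 6.67, 7.76 and 5.94 CPM in siSCR replicates 1, 3, 4 and 5 and 7.42, 7.84, 7.94 and 7.95 CPM in siBARD1. Only siSCR replicate 4 reached the siBARD1 range. NBR2 differed by 0.33 on the log2 scale (SE 0.14, adjusted p = 0.0767), by 0.20 without siSCR replicate 1 and by 0.46 with an adjusted p of 0.0213 without siSCR replicate 4. The 3 other neighbours, AC016708.1 opposite BARD1, ZAR1L opposite BRCA2 and CMC4 opposite BRCC3, had too few counts to be tested, and CMC4 had 0.

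The stretches between paired starts are printed because a member and its neighbour start on either side of them. Levels were counted per gene, and the activity of these stretches was not measured. Both are RefSeq promoter windows of 300 bases (GRCh38.p14), on the strand of PALB2 or BRCA1, with capitals from the neighbour's start to the member's start. The first window (chr16:23641261-23641560, minus strand) holds the starts of PALB2 and DCTN5, which were lower together, and the second (chr17:43125315-43125614, minus strand) those of BRCA1 and NBR2, which were not.
PALB2 and DCTN5: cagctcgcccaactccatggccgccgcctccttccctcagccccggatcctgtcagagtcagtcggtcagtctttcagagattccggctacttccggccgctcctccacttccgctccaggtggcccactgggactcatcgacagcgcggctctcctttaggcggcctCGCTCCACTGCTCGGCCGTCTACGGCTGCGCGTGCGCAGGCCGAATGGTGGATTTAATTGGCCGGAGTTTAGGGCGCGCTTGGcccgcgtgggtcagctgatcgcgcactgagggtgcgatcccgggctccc
BRCA1 and NBR2: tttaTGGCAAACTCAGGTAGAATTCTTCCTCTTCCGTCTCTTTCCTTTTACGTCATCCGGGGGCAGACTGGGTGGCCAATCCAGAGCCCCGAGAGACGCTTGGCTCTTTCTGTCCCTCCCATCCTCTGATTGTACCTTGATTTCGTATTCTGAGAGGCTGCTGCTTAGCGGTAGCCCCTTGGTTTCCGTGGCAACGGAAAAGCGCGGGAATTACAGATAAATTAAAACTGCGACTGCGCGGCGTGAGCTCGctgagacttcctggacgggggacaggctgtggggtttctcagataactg

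**Figure D4:**
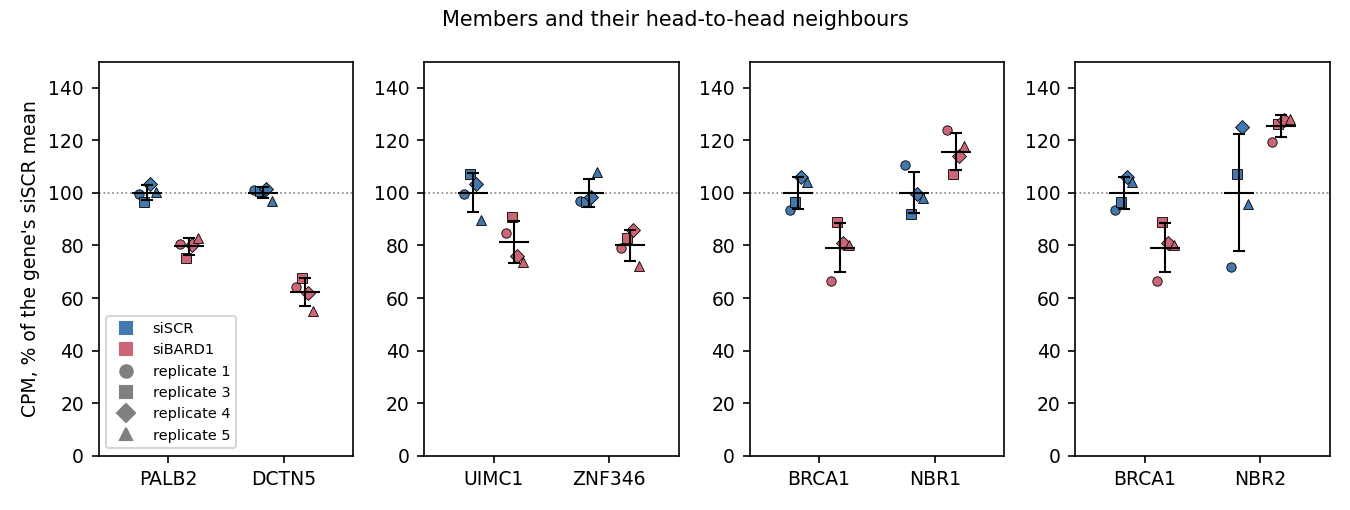
CPM of members and of genes that start close to them on the opposite strand, as percent of each gene's siSCR mean, in siSCR (blue) and siBARD1 (red) libraries, with mean and SD. PALB2 with DCTN5 and UIMC1 with ZNF346 are lower together in siBARD1, while NBR1 and NBR2 lie higher on average where BRCA1 lies lower.

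Genes that work next to the BRCA1-A complex were called about as often as all genes (20.0% lower and 18.9% higher). Of 15 genes of BRCA1-A, BRISC and ubiquitin signalling at breaks, 3 fell, 3 rose and 9 did not pass, with a median log2 fold change of -0.01. UBE2D1, a ubiquitin-conjugating enzyme of the family that works with BRCA1-BARD1, fell by 0.70 on the log2 scale (SE 0.07, adjusted p = 1.21e-06), with means of 38.3 ± 2.11 and 23.7 ± 1.99 CPM. Its relative UBE2D3 rose (0.20, SE 0.05), and UBE2D2 had -0.02 and did not pass. SHMT2, which anchors BRISC, fell (-0.26, SE 0.06). RNF168, the ligase that marks H2A before BRCA1-BARD1 binds, rose from 38.4 ± 1.41 to 49.1 ± 1.82 CPM (0.35, SE 0.06, adjusted p = 1.05e-04). BABAM2, the remaining core subunit of BRCA1-A, had -0.11 (adjusted p = 0.199).

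From the BRCA1-B and BRCA1-C complexes 4 genes were listed (TOPBP1, RBBP8, MRE11 and RAD50), which are not all subunits. Of the 4 listed, 3 fell and 1 rose, with a median of -0.25. Among all genes, 20.0% were lower and 18.9% higher. TOPBP1, which BRIP1 and BRCA1 join at stalled forks, fell by 0.65 on the log2 scale (SE 0.06, adjusted p = 1.30e-07), from a mean of 170.3 ± 7.53 CPM down to 108.2 ± 7.90. The nuclease subunit MRE11 fell as well (-0.29, SE 0.06). RAD50 rose (0.39, SE 0.09), but same-strand genes cover 79.7% of its exonic bases, and its count may come from the rest alone.

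Along the PALB2 and BRCA2 branch, 9 of 21 tested genes fell, 2 rose and 10 did not pass, with a median of -0.18, against 20.0% lower and 18.9% higher among all genes. The number that fell ran from 6 without siBARD1 replicate 5 to 11 without siSCR replicate 1. RAD51C, a homologous recombination factor, fell (-0.60, SE 0.10, adjusted p = 1.53e-04). DMC1, known for its role in meiosis, fell by 0.96 (SE 0.21, adjusted p = 0.0015) at a low level, 2.96 ± 0.76 in siSCR and 1.52 ± 0.11 CPM in siBARD1. MORF4L1 (MRG15), a chromatin protein that binds PALB2, rose by 0.45 (SE 0.05, adjusted p = 4.29e-06), with 341.6 ± 21.5 CPM in siSCR and 467.1 ± 19.2 in siBARD1. ZSWIM7, a homologous recombination factor of the Shu complex, rose (0.26, SE 0.09, adjusted p = 0.0314) with overlapping groups. The number that rose was 1 without siSCR replicate 3 or 5 or without siBARD1 replicate 1, 4 or 5.

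Of 6 genes for other BARD1-binding proteins or mRNA 3′ end processing, 5 fell and 0 rose at an adjusted p under 0.05 in edgeR. Their median was -0.37, where 20.0% of all genes were lower and 18.9% higher. DESeq2 also called 5 lower and 0 higher, and 0 were higher at an unadjusted p under 0.05. EWSR1, an RNA-binding protein of the FET family, had 309.1 ± 30.2 CPM in siSCR and 109.0 ± 9.81 in siBARD1, a log2 change of -1.503 (SE 0.08, adjusted p = 3.05e-09). BCL3, a nuclear cofactor of NF-kB, fell too, with 48.8 ± 3.82 and 26.9 ± 4.03 CPM (-0.86, SE 0.09). The EWSR1 transcript carried CTACCAG at 2 places and that of BCL3 at 1, while those of CSTF2, CSTF3 and NPM1, which also fell, had 0 copies. Of the genes named above from the other lists, TOPBP1 had 2 copies and MRE11 had 1. ZSWIM7, which rose, had 1, and UBE2D1, SHMT2, RAD51C and DMC1, which fell, had 0. The cleavage factor subunits CSTF2 (-0.36) and CSTF3 (-0.32) fell, and CSTF1, the subunit to which BARD1 binds, had 0.05 (adjusted p = 0.479).

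S-phase genes moved with the fall of BRCA1, PALB2 and BRIP1, and their part in it was not tested. Of 13 such genes 12 fell and 0 rose in edgeR, as in DESeq2 and at an unadjusted p under 0.05. Among all genes, 20.0% were lower and 18.9% higher in edgeR. The S-phase genes had a median log2 fold change of -0.54. Their summed level was 1454 to 1737 CPM in siSCR and 1037 to 1251 CPM in siBARD1. MCM6 (-0.77, SE 0.06) and MCM3 (-0.66, SE 0.08), of the replicative helicase, led the list. For comparison, BRCA1 had -0.33, PALB2 -0.33 and BRIP1 -0.24, and BRCA2, which did not pass, had 0.15. Of 7 general proliferation genes, 4 fell and 0 rose in edgeR and in DESeq2, with a median of -0.21, and 0 were higher at an unadjusted p under 0.05. When siSCR replicate 1 was left out, 5 of the 7 fell in edgeR. CCNB1 (-0.34, SE 0.05) and TOP2A (-0.29, SE 0.06) had the largest changes, and MKI67, a marker of cycling cells, had -0.02 (adjusted p = 0.814).

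**Figure D5:**
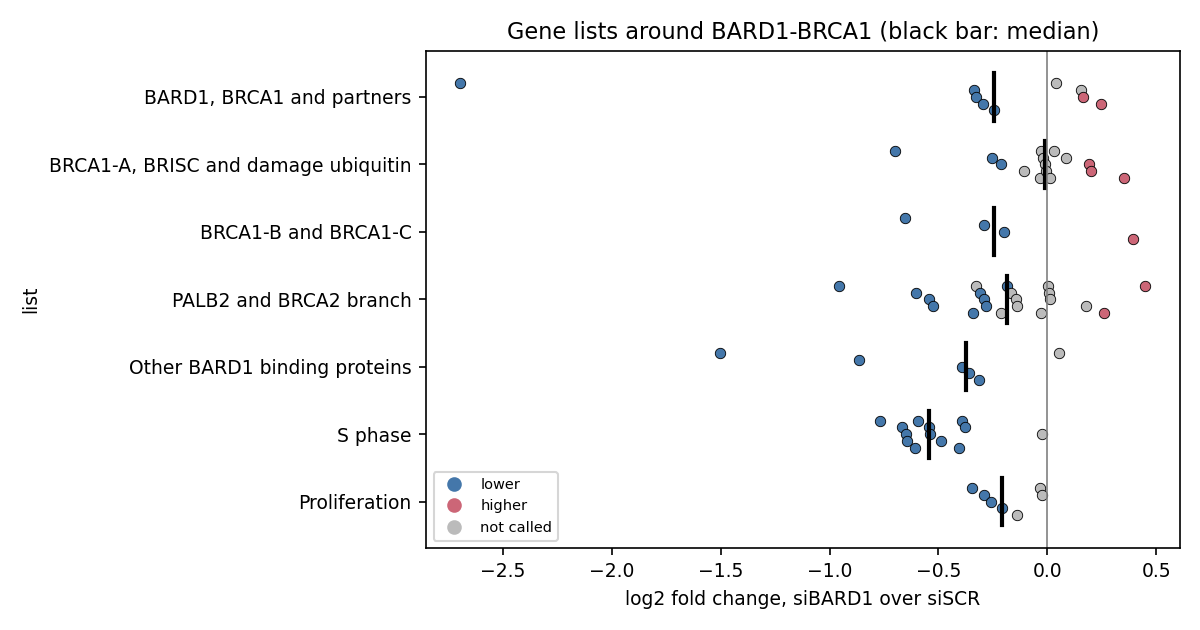
Log2 fold change (siBARD1 over siSCR) of each tested gene of the BARD1-BRCA1 set and of 6 related lists, coloured by call, with the list median as a black bar. The S-phase list lies furthest to the left by its median (-0.54), and the BRCA1-A, BRISC and ubiquitin list is centred near 0 (-0.01).

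The genes whose profile was most like that of BARD1 were found by the root mean square difference of log2 CPM over the 8 libraries, after each gene's siSCR mean was set to 0. Of 10424 candidates (protein-coding, mean of 5 CPM or more), ACP7 (0.23), the Rap1 exchange factor RAPGEF1 (0.26) and the F-box protein gene FBXO7 (0.29) were nearest. In siSCR and siBARD1, ACP7 had 76.6 ± 8.41 and 13.98 ± 0.49 CPM, RAPGEF1 146.7 ± 4.505 and 31.3 ± 2.25 CPM, and FBXO7 82.0 ± 4.65 and 10.8 ± 1.0 CPM (SD, n = 4 each). All 3 carried CTACCAG, at 1, 4 and 2 places, where 24.3% of tested protein-coding genes had a copy. Their log2 fold changes were -2.46, -2.23 and -2.93. The sequence was found among the steepest falls of these same libraries, so this is a description. For BRCA1 the nearest were TCF19 (0.05), TTF2 (0.05) and DBF4B (0.06), a regulatory subunit of the replication kinase CDC7. They had log2 fold changes of -0.32, -0.35 and -0.38, and none of the 3 carried the sequence.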

How the data were processed

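The tools named are fastp, HISAT2 (2.0.5) and featureCounts, per the submitters' processing notes. Their settings, roles and use of strand are not given in the sources. The authors deposited whole-number read counts per gene and FPKM values per gene, with 1 column per library. The notes name GRCh37 and hg19, but all 58735 gene starts and ends equal those of GENCODE release 29 on GRCh38, which all coordinates here follow.

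Counts were tested with edgeR (4.0.16, R 4.3.3): low genes were removed by filterByExpr, libraries scaled by TMM, and siBARD1 set against siSCR by the robust quasi-likelihood test, with Benjamini-Hochberg adjustment over 15287 genes at 0.05. CPM use TMM-scaled totals. SE was derived from the F statistic, as the absolute log2 change over its root, and 95% intervals are normal. The members, lists and tests were chosen with earlier results of these data known. Named genes were the members, tested neighbours, the 2 largest called changes per direction in each list, and the 3 profiles nearest to BARD1 and BRCA1; genes named beyond these (BABAM2, UBE2D2, CSTF1, CSTF2, CSTF3, NPM1, MKI67, BRCC3P1, AC010463.1, NBR2, MRPS18C) were chosen after their values were seen. Counts were also simulated for this comparison, with 15098 genes tested and 50 changed at each fold. The fit recovered 46% of 1.25-fold, 62% of 1.5-fold, 82% of 2-fold and 94% of 4-fold changes, with 6 false calls. Only 200 genes were changed there, while 38.9% were called in the data, so these rates do not carry over directly.

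Alternatives were RLE and total-count scaling, 2 other low-count filters, protein-coding genes only, DESeq2 (1.42.0), a block on the replicate number, leaving out each library, and limma (3.58.1) on log2(FPKM + 1) and with a pseudocount of 0.1. Their use on the lists and neighbours, and the search of the longest coding transcript, were added after seeing the data.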

Additional observations from a re-analysis of the deposited data

How the results depend on the processing

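BARD1, BRCA1, PALB2 and UIMC1 kept their direction and stayed under an adjusted p of 0.05 in all 17 alternatives. BRCA1 ranged from -0.39 to -0.26 and PALB2 from -0.35 to -0.28 on the log2 scale. BRIP1 was called in 9 of the 17, ABRAXAS1 in 10 and BRCC3 in 10, with adjusted p up to 0.137, 0.114 and 0.106. The number of the 9 genes called higher was 0 with no low-count filter, 1 with limma on either FPKM scale, 3 with total-count scaling (4 lower), and 0 to 2 when single libraries were left out. BABAM1 had -0.011 without siSCR replicate 1, and 0.086 when siSCR replicate 3 was left out. Of the list of the PALB2 and BRCA2 branch, 6 to 11 genes fell and 1 to 2 rose when single libraries were left out. The log2 difference of the BARD1 to BRCA1 ratio ranged from -2.49 to -2.26 when single libraries were left out, where 3 against 4 libraries allow no p below 0.0571.

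With the replicate number as a block, 3379 genes were lower and 3225 higher instead of 3057 and 2889, and no call among the 9 genes changed. NBR2 came to 0.34 with an adjusted p of 0.0391 under the block. For the BARD1 to BRCA1 ratio a sign-flip test over the 4 pairs gave -2.36 with an exact p of 0.125, the smallest that 4 pairs allow. Deviations of same-numbered libraries correlated at 0.18, 0.17, 0.04 and -0.03 for numbers 1, 3, 4 and 5, so the numbers were not taken to pair the libraries, and siSCR replicates 4 and 5 and siBARD1 replicates 3, 4 and 5 correlated best with another number. With total-count scaling 2478 genes were lower and 3616 higher, and the median log2 fold change of all genes was 0.05.

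Depth limits the residual BARD1 level, which rests on 55 to 97 counts per library. FPKM pseudocounts shrink low genes, and BARD1 had -1.49 on log2(FPKM + 1).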
